A study of Mus musculus with 8 samples.

Results

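Globins and the genes of red cell formation were followed here on 8 arrays of embryonic mouse tissue as 9 genes, taken by gene symbol: the embryonic globin genes Hba-x, Hbb-bh1 and Hbb-y, the heme synthesis gene Alas2, the red cell membrane genes Slc4a1, Epb42 and Ermap, and the erythroid regulators Gata1 and Klf1. Every probe set (the group of short probes that reads out a transcript) annotated to exactly 1 of these symbols was taken, which gave 16 probe sets for all 9 genes on the E18.5 array and 11 probe sets for 8 genes on the older E11.5 array, where Ermap had none. The 9 genes stand among 18336 genes that had a probe set of their own on either array. The tested lungs were from E18.5 FVB/N embryos with both transgenes of an SP-C/MIA design (MIA bitransgenic, n = 3), and their controls were lungs of E18.5 FVB/N embryos with a single transgene (n = 3). The labels name SP-C, a promoter active in distal lung epithelium, and do not say which transgene the controls carried or whether a sample pooled embryos. The other comparison set FVB/N lung at E11.5 against FVB/N trachea at E11.5, with 1 array each. The study asked how misexpressed MIA, a secreted protein first known from melanoma and cartilage, alters the lung, and which genes differ between early lung and trachea.

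Red cells first form in the yolk sac as large primitive cells that carry embryonic hemoglobin, a tetramer of alpha-like and beta-like globin chains around heme. Definitive red cells from the fetal liver later replace them in the circulation and carry adult globins. Lung tissue that is not flushed contains blood, so that RNA of circulating reticulocytes and nucleated red cells is read out together with RNA of the lung's own cells. In such bulk samples fewer red cells and less RNA per red cell cannot be told apart.

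The promoters of 7 of the 9 genes were matched in RefSeq on GRCm38.p6, each with 250 bases before and 50 bases after the gene's start. The promoters of 3 of them are shown because they belong to the members with the highest signals here: the embryonic globin genes Hba-x (chromosome 11, 32276350 to 32276649, plus strand) and Hbb-y (chromosome 7, 103853158 to 103853457, minus strand), and Alas2 (chromosome X, 150547167 to 150547466, plus strand). Capitals mark 3 motifs searched on both strands: the GATA motif (GATAA or GATAG with an A or a T before it), known as the binding site of GATA factors, the CACCC box (CACCC), known as a site of Krüppel-like factors such as KLF1, and the CCAAT box (CCAAT). Their letters do not overlap one another.
Hba-x: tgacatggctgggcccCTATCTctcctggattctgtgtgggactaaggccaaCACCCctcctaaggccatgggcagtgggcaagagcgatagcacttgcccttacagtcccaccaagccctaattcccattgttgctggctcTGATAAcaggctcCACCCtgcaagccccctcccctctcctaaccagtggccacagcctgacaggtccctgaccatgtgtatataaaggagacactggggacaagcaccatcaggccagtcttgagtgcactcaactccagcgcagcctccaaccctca
Hbb-y: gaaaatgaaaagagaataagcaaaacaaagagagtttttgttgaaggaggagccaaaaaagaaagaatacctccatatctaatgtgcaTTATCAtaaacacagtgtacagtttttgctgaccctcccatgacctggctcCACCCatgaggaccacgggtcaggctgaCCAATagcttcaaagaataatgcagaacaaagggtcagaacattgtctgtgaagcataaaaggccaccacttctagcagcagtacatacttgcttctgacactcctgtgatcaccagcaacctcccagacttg
Alas2: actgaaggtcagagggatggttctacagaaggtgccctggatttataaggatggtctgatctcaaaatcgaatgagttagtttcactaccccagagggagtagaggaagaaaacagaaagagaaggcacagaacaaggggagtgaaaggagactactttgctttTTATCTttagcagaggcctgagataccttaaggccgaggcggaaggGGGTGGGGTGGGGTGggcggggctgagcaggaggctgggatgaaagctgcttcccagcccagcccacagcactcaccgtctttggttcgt

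In Hba-x a forward GATA motif lay at positions -108 to -103 from the start, followed by a CACCC box at -95 to -91. Hbb-y held a reverse GATA motif at -162 to -157, a CACCC box at -111 to -107 and a CCAAT box at -83 to -79. Alas2 had a reverse GATA motif at -86 to -81 and 3 adjoining reverse CACCC boxes between -40 and -26. Of the 7 matched promoters 6 held a GATA motif, 6 a CACCC box and 3 a CCAAT box, against 29.8%, 57.5% and 37.4% of all 32851 RefSeq promoters of that length. Both a GATA motif and a CACCC box were found in 5 of the 7, and in 14.9% of all. A match of letters is a description of the sequence and not a measured binding site.

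The arrays carried the marks of their labels. The Mia probe set read 31399, 42666 and 41546 in bitransgenic lungs, against 1071, 1070 and 734 in controls. The surfactant gene Sftpc read 85319 ± 11417 (SD, n = 3) in bitransgenic and 84710 ± 3667 (SD, n = 3) in control lungs, and 1503 in E11.5 lung against 257 in E11.5 trachea. Array medians were 421 to 464 in the bitransgenic lungs and 415 to 460 in the controls. By their Xist and Y-linked signals, replicate 1 of each group was male and replicates 2 and 3 were female. The Actb 3' to 5' ratio, a sign of RNA quality, was 1.506 to 1.646 in the bitransgenic lungs and 1.285 to 1.501 in the controls. It moved with the group, by a narrow margin between the nearest arrays. The Gapdh ratio, at 0.9209 to 1.079 and 0.7814 to 0.9210, overlapped slightly. Bitransgenic 3 and control 3 correlated least with the remaining E18.5 arrays, with a mean r over probe sets of 0.962 and 0.954.

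At E18.5 no member probe set passed the test, and the tested members with the smallest p-values were Alas2 and both tested Slc4a1 probe sets, all with lower means in the bitransgenic lungs. A probe set was tested when its mean log2 value was at or above the 40th percentile, about a signal of 251, and 8 of the 16 members, from 6 genes, were. None of these 8 was called at an adjusted p under 0.05 (limma, Benjamini-Hochberg over 27022 probe sets), against 0.444% of all probe sets tested (120 called). At an unadjusted p under 0.05 in limma there were 3, against 9.57% of all. With array weights limma called 3 of the 8, and 11.2% of all. Log2 changes were below 0 for 7 of the 8, against 46.5% of all. Their median was -0.65, beside 0.02 over all probe sets tested. The 8 probe sets share 6 genes and the same RNA of each sample, so they are not independent readings. Ermap averaged 216 in bitransgenic and 353 in control lungs, and so was above the filter signal through its controls. The median of the members past the filter was -0.28 without bitransgenic 3, -0.34 without control 2 and -0.41 without bitransgenic 3 and control 3, and over all 16 with no filter it was -0.23.

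**Figure D1:**
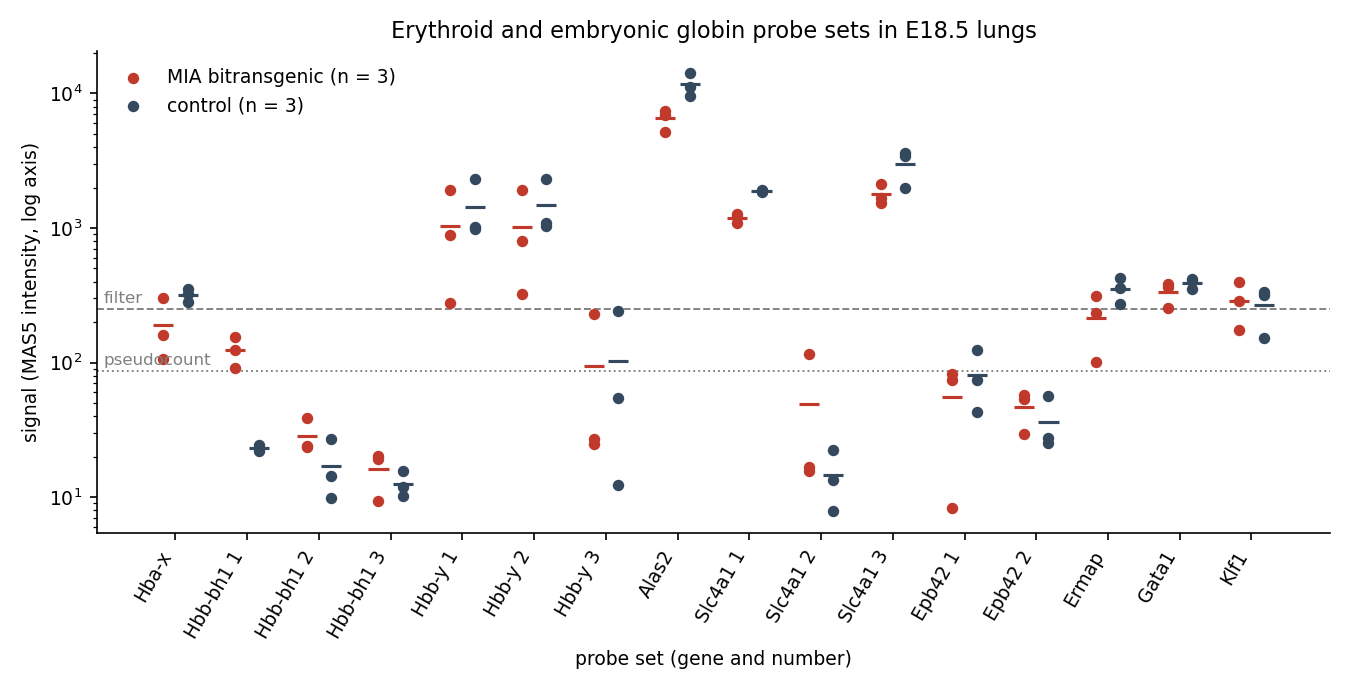
Signal of each of the 16 member probe sets on the E18.5 arrays, on a log axis, with 3 MIA bitransgenic lungs (red) left of 3 controls (dark); points are arrays and bars are group means. The dashed line marks the filter at a signal of about 251 and the dotted line the pseudocount of 86.4; Alas2 and the first Slc4a1 probe set have groups that do not overlap above the filter.

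Alas2 encodes the erythroid form of the enzyme that starts heme synthesis. Its probe set read 5216, 7431 and 6976 in the bitransgenic lungs, against 9549, 11266 and 14287 in the controls. All 3 bitransgenic lungs lay below all 3 controls. The means were 6541 ± 1170 and 11701 ± 2398 (SD, n = 3 each), a log2 change of -0.83 with an SE of 0.18 (limma adjusted p = 0.133). Alas2 lies on the X chromosome, and the difference had the same direction within each sex: 5216 against 9549 in the male lungs, and 7431 and 6976 against 11266 and 14287 in the female lungs. With sex as a covariate the log2 change was the same -0.83 and passed (limma adjusted p = 0.0363), in a fit that called 0.525% of all probe sets. Fitted together with the Actb ratio it was -0.41 (limma adjusted p = 0.829).

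Slc4a1 encodes band 3, the anion exchanger that is the main integral protein of the red cell membrane. Its probe set 1416464_at read 1202, 1086 and 1267 in the bitransgenic lungs, against 1859, 1905 and 1877 in the controls. The groups did not overlap, and the controls lay within a range far narrower than the gap between groups. Its log2 change came to -0.63 ± 0.14 (SE, limma adjusted p = 0.125), and it was -0.68 when the Actb ratio was fitted too (limma adjusted p = 0.698). The second probe set above the filter, 1434502_x_at, read 2140, 1684 and 1547 in bitransgenic lungs, against 3587, 3425 and 1991 in controls. Here control 3 lay below bitransgenic 1, so the groups overlapped (log2 change -0.69, SE 0.23, limma adjusted p = 0.365). Without bitransgenic 3 and control 3 together, this probe set passed at -0.86 on the log2 scale (limma adjusted p = 0.0369, with 0.873% of all called), and with the Actb ratio fitted it had -1.23 (limma adjusted p = 0.215). The remaining Slc4a1 probe set, 1431743_a_at, read 15.7 to 116 in bitransgenic lungs and 7.90 to 22.4 in controls and was not tested. Across all probe sets tested, 7.30% had every bitransgenic lung below every control and 9.29% had every one above, while of the 8 tested members 2 were wholly below (1 each of Alas2 and Slc4a1) and 0 wholly above.

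**Figure D2:**
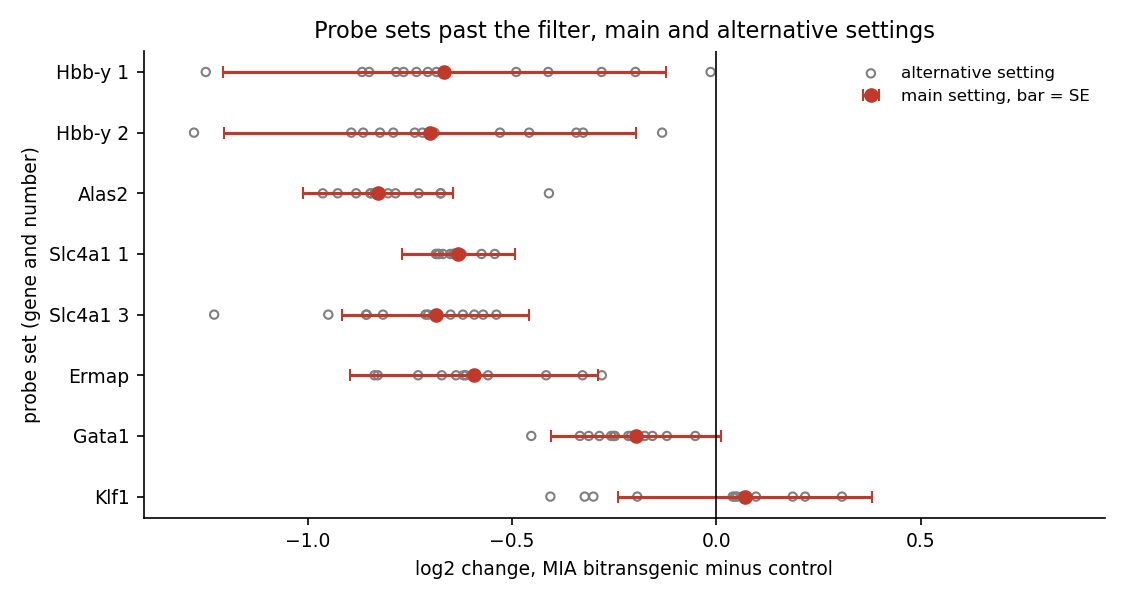
Log2 change, MIA bitransgenic minus control, of the 8 member probe sets past the filter: red points with SE bars are the main setting and open circles the alternative settings. Every probe set but Klf1 stays below 0 in each setting that tested it, while Klf1 lies on both sides of 0.

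The embryonic globins gave low or divided signals at E18.5. Hba-x, the alpha-like chain of primitive red cells, read 105, 161 and 300 in bitransgenic lungs, against 284, 321 and 351 in controls. Bitransgenic 3 lay within the range of the controls while the other bitransgenic lungs were lower. Its mean was below the filter, and in the fit with no filter its log2 change came to -0.62 ± 0.29 (SE, limma adjusted p = 0.683). Hbb-y, the beta-like chain of primitive red cells, was read by 3 probe sets that disagreed in level. Its 1436717_x_at read 894, 1917 and 275 in bitransgenic lungs, against 985, 2327 and 1011 in controls. The groups overlapped, and the lung-to-lung spread exceeded the difference (log2 change -0.67, SE 0.54, limma adjusted p = 0.751). Without bitransgenic 3 that log2 change was -0.01, and without bitransgenic 2 it was -1.25. The second, 1436823_x_at, followed it closely, with 805, 1930 and 326 in bitransgenic lungs, against 1084, 2326 and 1038 in controls (log2 change -0.70, SE 0.50, limma adjusted p = 0.72). By contrast 1450621_a_at read 24.8, 231 and 26.8 in bitransgenic lungs, against 12.4, 54.1 and 243 in controls, mostly below the pseudocount. The x in a probe set's name marks probes that can also bind other transcripts. This limit also holds for Slc4a1 1434502_x_at and Hbb-b2 1427866_x_at. Beta-like globins are close in sequence, so the Hbb-y level at E18.5 is uncertain.

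Hbb-bh1, the other beta-like chain of primitive cells, had all 3 probe sets below the filter. Its 1437810_a_at read 90.7, 125 and 156 in bitransgenic lungs, against 22.1, 24.3 and 23.0 in controls. This was the 1 member probe set whose bitransgenic values all lay above the controls, and in the fit with no filter its log2 change came to 0.93 ± 0.21 (SE, limma adjusted p = 0.218). The other probe sets of the gene did not share it: 1437990_x_at read 23.9, 23.7 and 38.4 in bitransgenic lungs, against 14.3, 9.82 and 27.1 in controls, and 1450736_a_at read 9.32 to 20.2, against 10.2 to 15.5. All of these signals lie near or under the pseudocount of 86.4, where the array gives little information on level.

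None of the other membrane genes and regulators had groups that lay apart. Ermap, an erythroid membrane protein that carries a blood group antigen in humans, read 235, 312 and 100 in bitransgenic lungs, against 361, 423 and 273 in controls. Only bitransgenic 2 reached into the range of the controls (log2 change -0.59, SE 0.30, limma adjusted p = 0.59). Without bitransgenic 3 the log2 change was -0.28. Epb42, which encodes a protein that ties band 3 to the membrane skeleton, was below the pseudocount on average in both groups, with 8.33 to 82.1 in bitransgenic lungs and 43.1 to 124 in controls for 1417337_at and 29.6 to 57.2 and 25.0 to 56.4 for 1417338_at. Gata1, the master regulator of red cell, platelet and mast cell lineages, read 385, 254 and 362 in bitransgenic lungs, against 404, 417 and 351 in controls. The groups overlapped (log2 change -0.20, SE 0.21, limma adjusted p = 0.815). Klf1, the activator of adult beta globin and many red cell genes, read 174, 288 and 399 in bitransgenic lungs, against 319, 336 and 153 in controls. Its log2 change of 0.07 (SE 0.31, limma adjusted p = 0.967) turned to -0.19 without control 3 and to -0.32 when the Actb ratio was fitted too.

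The adult globins could be read mainly by probe sets annotated to several genes at once. Of these, 4 covered the adult alpha or the adult beta globin genes jointly and lay near the top of the array range, whose highest signals were 101373 to 124807. The joint beta probe set read 68557, 71303 and 93192 in bitransgenic lungs, against 72554, 71526 and 82785 in controls (log2 change 0.03, limma adjusted p = 0.97). Of the 3 joint alpha probe sets, 2 had log2 changes of 0.10 and 0.12 and the third -0.84 (limma adjusted p = 0.525), where bitransgenic 3 alone read 23849 and every other lung between 71030 and 109717. Among probe sets of 1 gene, Hbb-b2 1427866_x_at read 2896, 3663 and 1225 in bitransgenic lungs, against 5542, 6819 and 1896 in controls, with overlapping groups (log2 change -0.80, limma adjusted p = 0.659), while Hbb-b2 1427865_at and Hba-a2 had 0.31 and 0.31.

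None of the 90 tested probe sets in the 4 other erythroid lists was called in either direction by limma, against 0.444% of all, and 12 had an unadjusted p under 0.05, against 9.57% of all. Heme synthesis held 21 of them with a median log2 change of 0.00 and 2 non-overlapping in each direction. Fech, the enzyme that inserts iron into heme, had 3516, 3669 and 4711 in bitransgenic lungs, against 5088, 5604 and 6008 in controls for 1418698_a_at (log2 change -0.49, limma adjusted p = 0.321). Cpox 1422492_at had a log2 change of -0.47 and Uros 1423482_at of 0.35, with limma adjusted p = 0.428 and 0.442. The other tested probe sets of Cpox and Uros differed, with 0.00 for Cpox 1422493_at and -0.72 for Uros 1440535_at. Those of Fech had -0.31 and -0.21, both with overlapping groups. The 18 membrane and skeleton probe sets had a median of -0.02 (-0.21 with the filter at the 60th percentile), with Tmcc2 at -0.87 and Add2 at 0.76 (limma adjusted p = 0.36 and 0.537). The 26 probe sets of erythroid and early blood transcription factors had a median of 0.02. There Lmo2 and Trim10 had -0.36 and -0.55 and Runx1 1422864_at had 0.54 (limma adjusted p = 0.4, 0.414 and 0.459). The other tested Runx1 probe sets had 0.24, 0.01, -0.05 and -0.09.

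Among 25 probe sets of red cell enzymes and iron handling the median was -0.13, and 19 had negative log2 changes. Bpgm, which makes the 2,3-bisphosphoglycerate that lowers the oxygen affinity of hemoglobin, had 2 probe sets with groups apart. Its 1415864_at read 1517, 1980 and 1539 in bitransgenic lungs, against 2695, 2822 and 2609 in controls (log2 change -0.67, limma adjusted p = 0.133), and 1448119_at had -0.73 (limma adjusted p = 0.204). A further Bpgm probe set, 1415865_s_at, had overlapping groups. Slc40a1, the iron exporter ferroportin, had -0.33 on 1448566_at (limma adjusted p = 0.499), and -0.13 with overlapping groups on 1417061_at. The summed signal of this list was 104037 to 110251 in bitransgenic lungs and 117826 to 118530 in controls. Large parts of that sum were Car2, with means of 26679 in bitransgenic and 26745 in control lungs, and Cat 1416429_a_at, with 19885 and 23048. Prdx2 1418506_a_at averaged 19728 in bitransgenic and 21314 in control lungs.

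**Figure D3:**
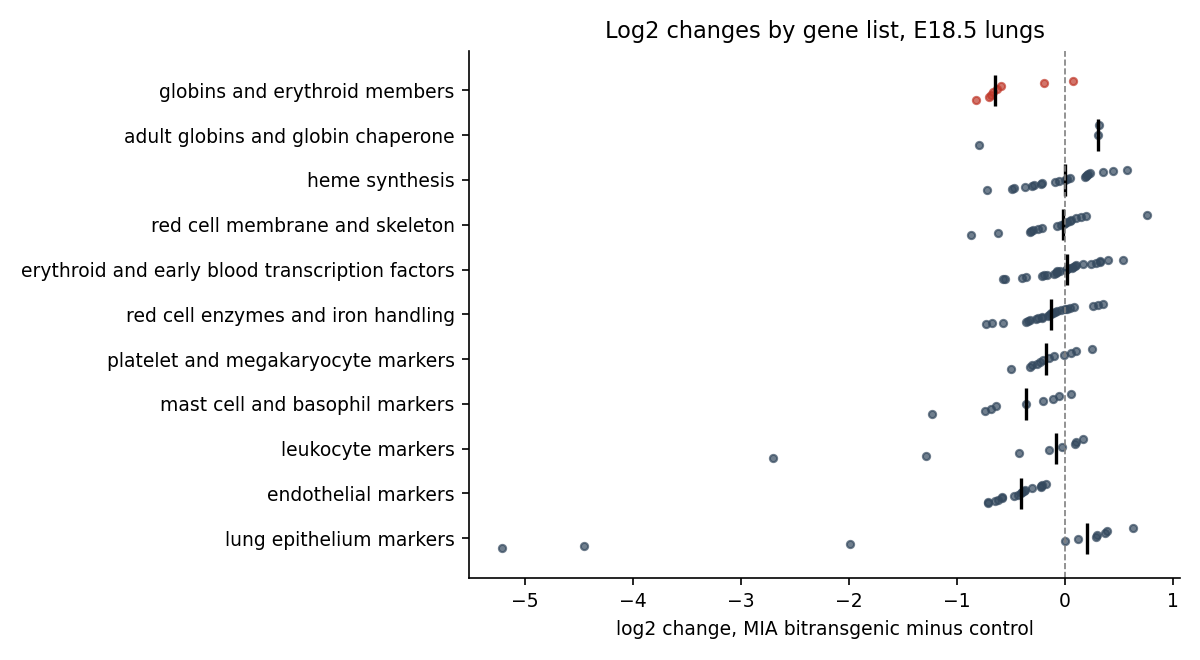
Log2 change, MIA bitransgenic minus control, of each tested probe set by gene list, with the members on top in red and the median of each list as a black line. The heme, membrane and transcription factor lists have medians near 0, and all 17 endothelial probe sets lie below 0.

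Some markers of other blood and vessel cells moved with the group as well, and their part in the results above was not tested. All 17 endothelial probe sets (12 of 12 genes) had negative log2 changes, 11 with groups apart, with a median of -0.41 and none called. Their summed signal was 113642 to 119074 in bitransgenic lungs and 144944 to 189593 in controls, and the median was -0.16 when the Actb ratio was fitted too. Pecam1 had -0.40. Among 9 tested mast cell and basophil probe sets the median was -0.36, and 1 of Hdc, the histidine decarboxylase, fell, with -1.23 on the log2 scale (limma adjusted p = 0.0412). Kit, a receptor of mast cells and blood progenitors, had -0.69 (limma adjusted p = 0.149). Cma1, Cpa3 and Tpsab1 of the same list had 0.05, -0.11 and -0.06, and 8 of the 9 probe sets were below 0. The summed signal of that list was 11813 to 12702 in bitransgenic lungs and 17361 to 19920 in controls. Large parts of it were Hdc 1454713_s_at, with means of 3486 in bitransgenic and 6196 in control lungs, and Kit 1452514_a_at, with 2590 and 4230.

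Of 8 leukocyte probe sets 2 fell, Lyz2 (log2 change -1.28, limma adjusted p = 0.0139) and Lcn2 (-2.70, limma adjusted p = 0.0319), both also made by lung epithelium, and the list's median was -0.09. Ptprc, the pan-leukocyte CD45 gene, had 0.16 (limma adjusted p = 0.811). The list's summed signal was 44067 to 52313 in bitransgenic lungs and 69050 to 81758 in controls. Within that sum Lyz2 averaged 16752 in bitransgenic and 41213 in control lungs, while Csf1r 1419872_at averaged 20116 and 19223. Of the 8 tested probe sets 5 had log2 changes below 0 and 3 above. None of 12 platelet and megakaryocyte probe sets was called, with a median of -0.17, a summed signal of 13481 to 13942 in bitransgenic lungs and 15102 to 16032 in controls, and Ppbp at -0.50 (limma adjusted p = 0.583). In the lung epithelium list both Sftpa1 probe sets fell, with log2 changes of -4.45 and -5.21 (limma), and the median of its 10 probe sets was 0.20. No defining marker of these lists was at 0, since every signal in the table was above 0.

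Probe sets of other genes were ranked over the 6 E18.5 arrays by Pearson correlation with the mean centred log2 value of the 8 tested members. That mean was -0.27, 0.06 and -0.58 in the bitransgenic lungs, against 0.21, 0.55 and 0.03 in the controls. The members did not all follow each other, so a match to the mean is not a match to each member. Their r with Alas2 was 0.84 and 0.38 for Slc4a1, 0.34 and 0.39 for Hbb-y, 0.46 for Ermap, 0.17 for Gata1 and -0.11 for Klf1. The 8 most similar to the mean were Bhlhe40 (r = 0.993), Tubb2b (0.991), Marcks (0.990), Eif5 (0.987), Tmem100 (0.987), Scn7a (0.985), Sugt1 (0.984) and Igfbp3 (0.984), none in the erythroid lists. Of 22585 probe sets, 279 had an r over 0.9, and all points share the same arrays and the group difference.

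At E11.5 the embryonic globin genes Hba-x and Hbb-y were among the strongest signals in both lung and trachea, and the 9 member probe sets past the filter read higher in trachea. Hba-x had 91812 in lung and 114414 in trachea. Hbb-y had 86001 and 94338 in lung against 105290 and 117733 in trachea on its probe sets 103535_at and 97180_f_at. The highest signals of the arrays were 111504 in lung and 128852 in trachea, so these probe sets lay at the top of the range, and their log2 ratios of lung over trachea were only -0.29 to -0.32. The other 4 probe sets with a lung signal of at least 86001 had trachea-to-lung ratios of 0.958 to 1.21, with a median of 1.17. The highest of these was the adult globin gene Hba-a1, beside 1.22 to 1.25 for Hba-x and Hbb-y. With quantile normalization the ratios of Hba-x and Hbb-y were -0.08 to 0.

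**Figure D4:**
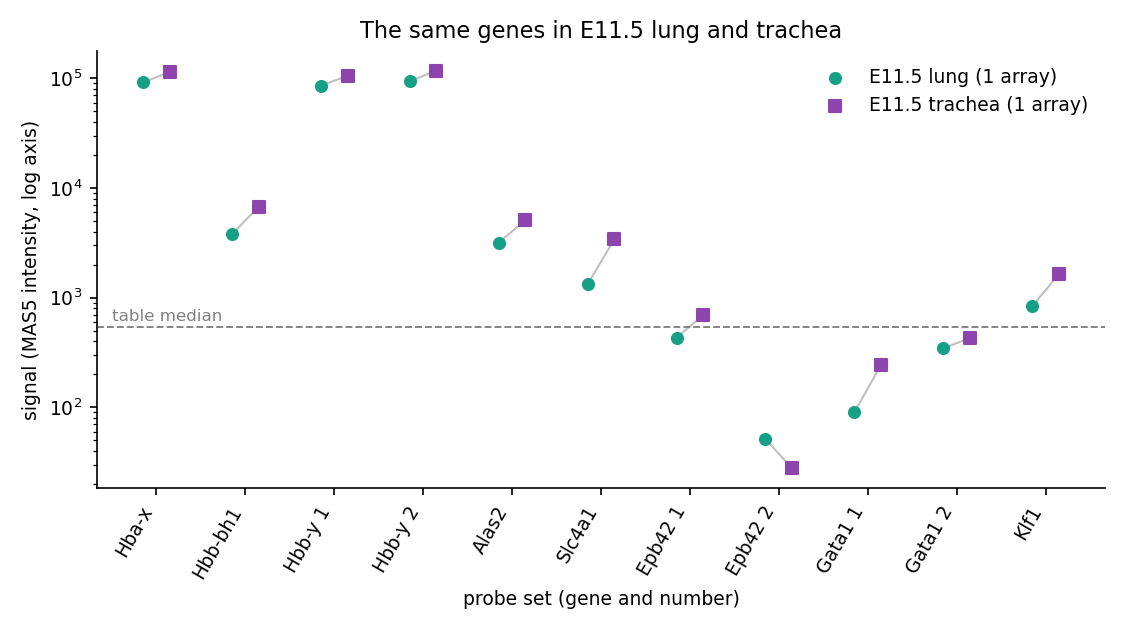
Signal of the 11 member probe sets in E11.5 lung (circles) and trachea (squares), 1 array each, on a log axis with the table median of 543 as a dashed line. In 10 of the 11 the trachea reads higher, and Hba-x and Hbb-y sit at 86001 or higher in both tissues.

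The members past the filter and below the top of the range had log2 ratios of -0.26 to -1.31. Hbb-bh1 had 3788 in lung and 6726 in trachea (log2 ratio -0.81). Alas2 had 3168 in lung and 5105 in trachea (-0.67). Slc4a1 had 1321 in lung and 3408 in trachea, the largest ratio of the members past the filter at -1.31. Epb42, on 102908_at, had 431 in lung and 693 in trachea (-0.59). Klf1 had 836 in lung and 1639 in trachea (-0.91). Gata1 had 344 in lung and 429 in trachea on 161456_f_at (-0.26), and 90.0 against 244 on 102654_at, which was below the filter. A second Epb42 probe set, 161151_at, was near the noise with 51.3 in lung and 27.7 in trachea.

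All 9 members past the filter read higher in trachea, against 48.7% of the 7453 probe sets compared, with a median log2 ratio of -0.59 beside 0.01 over all. By the rule of over 2-fold with the higher signal above the table median, only Slc4a1 was apart, 1 of 9, against 3.09% of all. There is 1 array per tissue and so no test: these ratios describe these samples, and how much the lungs or the tracheas of different embryos vary was not measured. The members were read from the same RNA of each sample and are not independent readings.

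The wider erythroid lists at E11.5 were divided. The membrane list had 6 of 7 probe sets higher in trachea with a median log2 ratio of -0.55. Ank1, the ankyrin that anchors the red cell skeleton, had 518 in lung and 1031 in trachea on 100439_i_at (-0.89), and Rhag and Rhd, of the Rh complex, had -0.58 and -0.55. Adult globin read the same way, with Hba-a1 at 92284 in lung and 111898 in trachea (-0.28) and Hbb-b2 at 10494 and 13839 (-0.40). Heme synthesis, whose enzymes all cells use, had a median of -0.04 with 7 of 10 higher in trachea, and Alas1, the form of the enzyme outside the red cell, had -0.36. Among the transcription factors the median was -0.11, with Epor and Nfe2 at -0.48 and -0.44 and Lmo2 at 0.57. The enzyme and iron list had a median of 0.12, with the transferrin receptor gene Tfrc at 0.96 and 0.61, towards lung. None of these probe sets was over 2-fold apart.

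Other cell types did not all share that direction. Endothelial probe sets had a median of -0.27, with 10 of 14 higher in trachea, Sox17 at -0.73 and Cldn5 at 0.63, and summed signals of 24085 in lung and 27410 in trachea, while Pecam1 had 0.54. Leukocyte and mast cell lists had medians of 0.05 and 0.10 (summed signals of 4628 and 3017 in lung, and 4903 and 2862 in trachea). The platelet list had 1 probe set past the filter, Vwf 103499_at, with 223 in lung and 895 in trachea. Endothelium also makes Vwf, and its probe set 97052_at, below the filter, read 93.9 in lung and 43.2 in trachea. The Actb 3' to 5' ratio was 1.41 in lung and 1.48 in trachea. The part of these in the globin and red cell ratios was not tested.

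The array types were scaled separately and use different probes, so the levels at E11.5 and E18.5 are set side by side without a comparison. Hba-x read far above its table's median of 543 at E11.5 (91812 and 114414) and below its table's median of 434 at E18.5 (105 to 351 over all 6 lungs). Hbb-bh1 read 3788 and 6726 at E11.5 and at most 156 at E18.5. Hbb-y read 86001 to 117733 at E11.5, and its level at E18.5 is uncertain. There 1436717_x_at read 275 to 2327 and 1436823_x_at 326 to 2326, mostly above the median, and 1450621_a_at 12.4 to 243. Alas2 lay above the median of its table at both stages, at 3168 and 5105 and at 5216 to 14287, and so did Slc4a1 on 101077_at and 1416464_at. Klf1 lay above the median at E11.5 and below it on all 6 E18.5 arrays.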

How the data were processed

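Per the submitters' processing notes the authors made the values with MAS5 (version not given in the sources used here). The deposited unit is intensity, a linear signal per probe set and array, and on every array the 2% trimmed mean was about 1500. Control probe sets were left out. Genes come from the platform annotation, and probe sets with several symbols (932 at E18.5, 396 at E11.5) name no gene. Values were analysed as log2(signal + pseudocount), 86.4 at E18.5 and 84.3 at E11.5, that is the 20th percentile of each table; this understates changes of low signals. Probe sets were kept when their mean log2 value reached the 40th percentile (27022 of 45037, and 7453 of 12422). E18.5 groups were compared by limma 3.58.1 (R 4.3.3; lmFit, eBayes with trend, two-sided, Benjamini-Hochberg, threshold 0.05). Exact permutation of 3 against 3 cannot go below 0.1. Nothing says that arrays came from separate animals, so p-values measure the spread between these samples, and the number of arrays limits the precision. At E11.5, apart meant over 2-fold with the higher signal above the median.

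The named genes were all members, of each list the called genes or up to 3 with the smallest p or largest ratio, fixed control genes, and the 8 nearest patterns. The members and lists were chosen with earlier results of these data known. Kit, Ptprc, Csf1r, Cma1, Cpa3 and Tpsab1 were named outside that rule, after their values were seen. On simulated data with 200 of 27022 probe sets changed, the E18.5 test recovered 14.3% at 1.5-fold, 67.5% at 2-fold and 99.7% at 4-fold. Alternatives covered scaling, pseudocount, filter, probe set choice, variance model, weights, threshold, covariates and left-out arrays. Figures were drawn with matplotlib 3.10.9.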

Additional observations from a re-analysis of the deposited data

How the results depend on the processing

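No member was called at E18.5 under 17 of 20 alternatives, among them both scalings, each pseudocount and filter, and each array left out. Array weights called 3 (Alas2 at limma adjusted p = 0.00385 and both tested Slc4a1 probe sets), sex as a covariate called 1 (Alas2, with 142 probe sets called in all), and leaving out bitransgenic 3 and control 3 together, chosen after seeing the data, called 1 (Slc4a1). The count of all probe sets called was 120, and it was 63 with no filter, 54 with no intensity trend, 3034 with array weights, 200 at a threshold of 0.1, 20 with the Actb ratio fitted and 236 without bitransgenic 3 and control 3. With 1 array left out it ran from 30 (control 2) to 104 (control 3), with 41, 48 and 55 without bitransgenic 1, 2 and 3, and the member count stayed at 0. Only Klf1 changed sign: to -0.30 with array weights, -0.32 with the Actb ratio, -0.41 without bitransgenic 3 and control 3, and between -0.19 and 0.31 with 1 array left out. The adult globin list, with 3 tested probe sets, had a median of 0.31 that was -0.80 with a filter at the 60th percentile, -0.24 with 1 probe set per gene, -0.13 with the Actb ratio and 0.05 without bitransgenic 3 and control 3. The mast cell median of -0.36 was -0.69 with the filter at the 60th percentile, the leukocyte median of -0.09 was -0.28 with 1 probe set per gene and -0.26 without control 2, and the transcription factor median of 0.02 was -0.11 without bitransgenic 3. At E11.5, 230 probe sets were apart; a pseudocount 4 times as large gave 125, and the number was 102 with a filter at the 60th percentile, 960 at 1.5-fold and 65 at 3-fold, and the member count was 5 at 1.5-fold and 0 at 3-fold. The other E11.5 alternatives kept 1 member apart, and none of the 9 members past the filter read higher in lung where an alternative kept it, although Hbb-y 103535_at came to 0 with quantile normalization. No paired analysis was possible because the labels give no replicate numbers shared between the groups. The cause of these changes was not tested. Signals under about 86 are too close to the low end of the arrays to rank.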
